A study of Mus musculus with 11 samples.

Results

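The effect of imatinib in BCR/ABL cells that also received the drug pair DFC+BCI was measured by RNA sequencing, by setting both imatinib+DFC+BCI libraries against both DFC+BCI libraries. All 10995 genes with at least 1 FPKM (a level per length of transcript and per depth of library) in 2 or more of these 4 libraries were taken, out of 23444 in the table. Of these, 10658 reached 1 FPKM in all 4 libraries, 42 did so in both imatinib+DFC+BCI libraries and in neither DFC+BCI library, and 36 the reverse. The cells were Kit+ bone marrow cells of C57BL/6 wild-type mice, isolated with CD117 beads and cultured overnight with FLT3, IL-6, IL-3 and mSCF. They were transduced with a virus carrying BCR/ABL and the marker YFP, sorted for positive cells, and treated for 4 h. All 4 libraries therefore carry BCR/ABL and were exposed to DFC+BCI, which the series uses against FOS and Dusp1. Imatinib is the only difference between the groups that the labels give. Untreated BCR/ABL cells and cells given imatinib alone, with 2 libraries each, show the same drug without DFC+BCI. The full set of 11 libraries also holds a vector control and an untreated and an imatinib-treated library labelled c-Fos-/-Dusp1-/-, 1 of each, which entered only the filter on low values and each gene's average level in the fit. BCR/ABL was expressed from a virus, no group was labelled as given vehicle alone, and the labels do not say whether duplicates came from separate animals. Where they did not, a p-value measures only the spread between these libraries.

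BCR/ABL is the fusion kinase of chronic myeloid leukaemia, and imatinib blocks the ATP pocket of ABL and also inhibits KIT, the receptor of stem cell factor. The kinase signals through STAT5, a transcription factor that cytokines such as IL-3 also switch on, and through RAS and ERK. Products of STAT5 target genes such as Cish, Socs1 and Socs2 damp cytokine signalling in turn. Active AKT downstream of the kinase keeps FOXO factors out of the nucleus, so that FOXO targets are usually held low while the kinase is active.

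Added to DFC+BCI, imatinib changed few genes past the test, among them 4 cytokine genes. Of the 10995 genes, 12 were lower (0.109%) and 1 was higher (0.0091%), by limma with an adjusted p under 0.05 over all 11442 genes tested. The cytokine genes Lif, Osm, Il6 and Il1f9 fell by 39.3% to 50.5% in FPKM, and the STAT5 target gene Socs2 fell by 32.1%. Only 3 called genes changed at least 2-fold on the fitted scale of log2(FPKM + 1). These were Eif3j1 and Usp17ld, which have near copies, and Snora16a, listed at 0 with imatinib added. The median log2 fold change over all 10995 genes was 0.02, the central 98% of them lay between -0.42 and 0.33, and the median SE was 0.0887. At an unadjusted p under 0.05, 588 genes were lower and 426 higher. The groups stood little further apart than replicates: across pairs of libraries from different groups 25 to 44 genes differed at least 2-fold, against 24 between both DFC+BCI libraries and 28 between both imatinib+DFC+BCI libraries. Pairs of an imatinib and an untreated library had 41 to 67 such genes.

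None of the 12 lower genes passed when any 1 of the 4 libraries was left out, although each kept its direction in those fits. The number of genes called over all 11442 then fell from 13 to 1 without DFC+BCI library a, 2 without DFC+BCI library b and 1 without imatinib+DFC+BCI library a. Without imatinib+DFC+BCI library b it was 7, all of them higher, with Eif3j1 the 1 gene shared with the full fit. The remaining library of the group is then assumed to vary like the other groups.

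Lif and Osm encode cytokines of the IL-6 family that signal through the gp130 receptor chain, and they are neighbours on the plus strand of chromosome 11 (GRCm38, Osm at 4236420 to 4241026 and Lif at 4257557 to 4272514). Lif stood at 16.1 and 15.2 FPKM in DFC+BCI libraries a and b, and at 7.85 and 7.62 FPKM in imatinib+DFC+BCI libraries a and b. Both libraries with imatinib lay below both without it, and replicates differed by far less than the groups. The log2 fold change of Lif was -0.93 (SE 0.0765, adjusted p = 0.0135), and without 1 of the 4 libraries its adjusted p was 0.0974 to 0.220. Osm went from 110 and 102 FPKM with DFC+BCI to 57.4 and 57.7 FPKM when imatinib was added (log2 fold change -0.87, SE 0.0885, adjusted p = 0.0382). The level of Osm with all 3 drugs was thus close to that of untreated cells, at 60.0 and 51.3 FPKM, and that of DFC+BCI libraries stood well above both. Lif in DFC+BCI libraries lay just under its untreated levels of 18.99 and 17.3 FPKM.

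Il6 encodes interleukin 6, a cytokine that was also supplied in the medium (chromosome 5, 30013114 to 30019981, plus strand). Its level was 18.7 and 18.98 FPKM with DFC+BCI and 10.9 and 10.4 FPKM with imatinib added. Il6 was lowest with all 3 drugs among the 4 replicated groups, since imatinib alone left 13.7 and 13.8 FPKM and untreated cells had 28.7 and 30.6 FPKM. The log2 fold change on adding imatinib was -0.77 (SE 0.0627, adjusted p = 0.0135; adjusted p = 0.0974 to 0.220 without 1 of the 4 libraries). Il1f9 encodes IL-36 gamma, a cytokine of the IL-1 family (chromosome 2, 24186476 to 24193568, plus strand). It went from 38.1 and 33.8 FPKM to 21.4 and 22.2 FPKM (log2 fold change -0.69, SE 0.0724, adjusted p = 0.0390). With imatinib added, Il1f9 was close to the levels of untreated cells (22.0 and 23.4 FPKM) and of imatinib alone (23.9 and 24.4 FPKM).

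Socs2 encodes an inhibitor of cytokine receptor signalling that STAT5 induces (chromosome 10, 95385362 to 95417180, minus strand). Its levels were 27.6 and 26.7 FPKM with DFC+BCI and 18.2 and 18.7 FPKM with imatinib added (log2 fold change -0.53, SE 0.0629, adjusted p = 0.0496). Serpina3g encodes a serine protease inhibitor of blood cells and belongs to a family of near-identical copies, so the counting of its reads is uncertain. Levels of 166 and 169 FPKM with DFC+BCI became 123 and 124 FPKM with imatinib added (log2 fold change -0.44, SE 0.0518, adjusted p = 0.0496). Socs2 and Serpina3g passed only narrowly, and their adjusted p was 0.292 to 0.491 and 0.298 to 0.414 without 1 of the 4 libraries. Tma16, named for its association with the translation machinery, went from 71.7 and 68.8 FPKM to 48.3 and 48.9 FPKM (log2 fold change -0.52, SE 0.0575, adjusted p = 0.0436).

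The other 5 lower genes lay outside the rule for named genes and are given because they complete the count, with their values already seen. The transcript 2810474O19Rik, which RefSeq also calls Resf1, a factor that silences retroelements, had 63.0 and 61.8 FPKM with DFC+BCI, then 35.3 and 36.2 FPKM with imatinib added. The log2 fold change was -0.79 (SE 0.0643, adjusted p = 0.0135), and the level stayed above the 15.9 to 17.4 FPKM of untreated BCR/ABL cells and of imatinib alone. Gm12250, listed by RefSeq as Irgb10, an interferon-inducible GTPase, and by GENCODE as a processed pseudogene, went from 9.24 and 8.94 FPKM to 6.10 and 5.84 FPKM (-0.53, SE 0.0598, adjusted p = 0.0436). Ikzf4, a zinc finger factor of the Ikaros family, was low throughout, at 2.90 and 2.75 FPKM and then 1.19 and 1.01 FPKM (-0.87, SE 0.0880, adjusted p = 0.0382). Usp17ld belongs to a family of deubiquitinase genes with near copies, several of them known to be induced by cytokines in blood cells. It had 3.495 and 2.76 FPKM with DFC+BCI and 0.808 and 1.02 FPKM with imatinib added (-1.11, SE 0.126, adjusted p = 0.0436). Its near copy Usp17lc, at 1.57 and 1.27 FPKM against 0.411 and 0.390 FPKM, did not pass (adjusted p = 0.0745). The fifth, the small nucleolar RNA gene Snora16a, was listed at 0 in both imatinib+DFC+BCI libraries and at 11.3 and 5.90 FPKM in the DFC+BCI libraries. No fold is given for Snora16a, since an exact 0 in such a table can be a failed estimate: Ly6e was listed at 0 in DFC+BCI library b and at 436 to 489 FPKM in the other 3.

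Eif3j1, a subunit gene of translation initiation factor 3, was the 1 gene higher on adding imatinib. It had 0.531 and 0.411 FPKM with DFC+BCI, and 28.1 and 15.05 FPKM with imatinib added (log2 fold change 3.88, SE 0.313, adjusted p = 0.0135). Its near copy Eif3j2 went the other way, from 70.9 and 77.8 FPKM to 39.9 and 49.0 FPKM (-0.74, SE 0.115, adjusted p = 0.110). The sum of both copies was 71.5 and 78.2 FPKM against 68.0 and 64.0 FPKM, a far smaller difference than that of Eif3j1 alone, so the division of reads between copies and the level of either cannot be told apart.

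**Figure D1:**
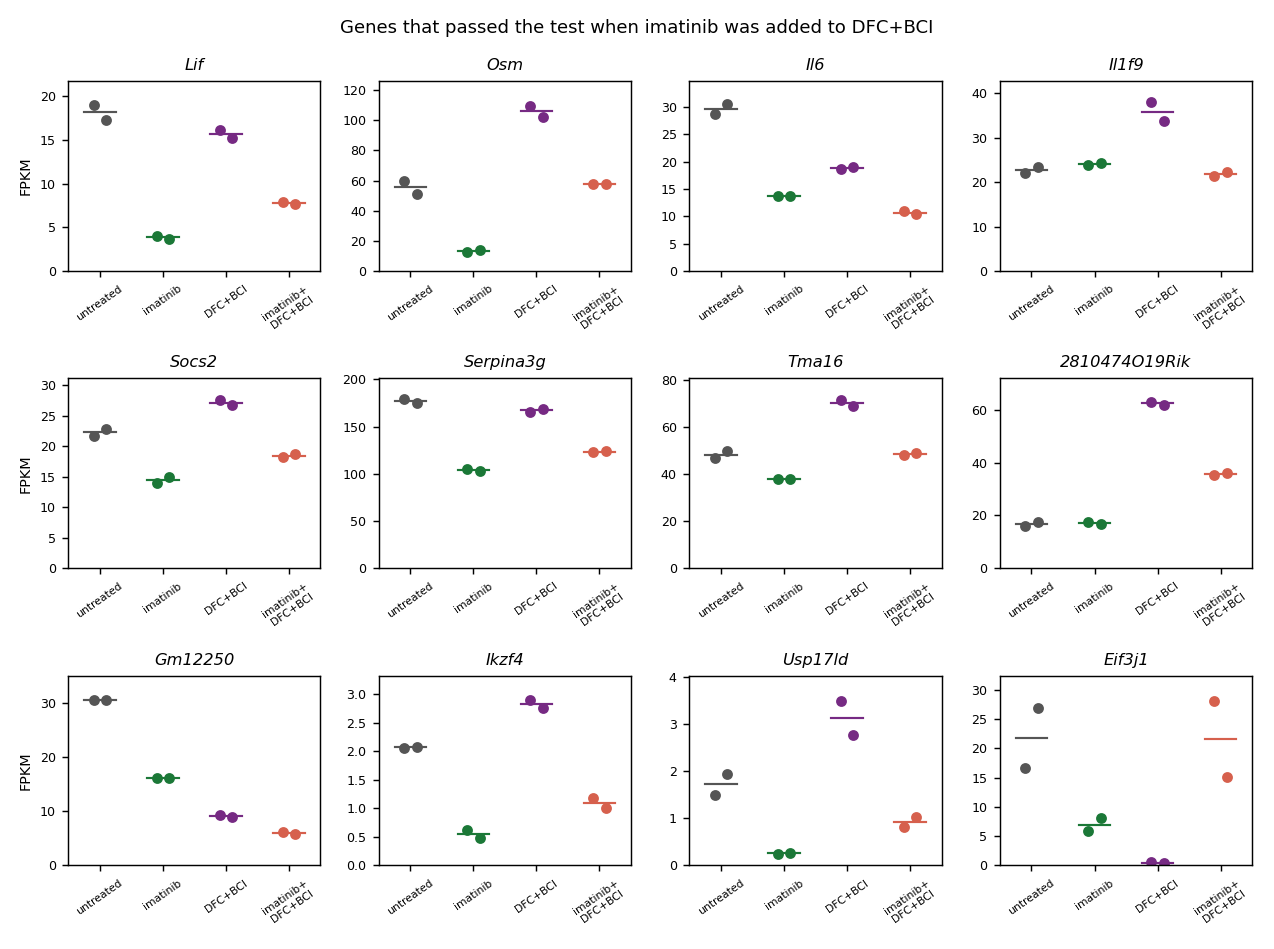
Levels in FPKM (vertical axis, from 0) of 12 of the 13 genes that passed the test, in untreated BCR/ABL cells and with imatinib, DFC+BCI or all 3 drugs (Snora16a, listed at 0, is not drawn). Each point is 1 library and each line the mean of 2; in every panel except that of Eif3j1 both imatinib+DFC+BCI points lie below both DFC+BCI points.

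The plot of the called genes by library shows how the starting level differs: Osm, Il1f9, Socs2, Tma16, 2810474O19Rik, Ikzf4 and Usp17ld stood higher in both DFC+BCI libraries than in both untreated ones, and Gm12250, Il6, Lif, Serpina3g and Eif3j1 stood lower. For Il6 and Gm12250 the lowest levels of the 4 groups were those with all 3 drugs.

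Sequences upstream of the called genes were taken from a set of RefSeq promoters (GRCm38.p6). It covered 8 of the 13 (Lif, Il6, Il1f9, Serpina3g, Tma16, Usp17ld, Gm12250 and Eif3j1). Osm, Socs2, Ikzf4, 2810474O19Rik and Snora16a were not in this set, so neither Osm nor Socs2, the called STAT5 target genes, was searched. Since STAT5 is a main route of BCR/ABL signalling, the 250 bases before each start were searched on both strands for the STAT motif TTCNNNGAA, for the AP-1 motif TGANTCA, the site of FOS and JUN, for CACGTG and for GTAAACA. The STAT motif, which reads the same on both strands, was found in 4 of these 8 promoters and in 7.02% of the 32851 promoters in the table. These 4 promoters are shown, 5′ to 3′ on the strand of the gene, with the STAT motif in capitals.
Serpina3g (chr12:104235897-104236146, plus strand): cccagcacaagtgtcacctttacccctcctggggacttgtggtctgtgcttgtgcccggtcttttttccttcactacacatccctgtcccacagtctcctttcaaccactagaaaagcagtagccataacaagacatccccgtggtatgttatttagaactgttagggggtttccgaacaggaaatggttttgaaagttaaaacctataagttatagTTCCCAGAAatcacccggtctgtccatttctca
Gm12250 (chr11:58183593-58183842, plus strand): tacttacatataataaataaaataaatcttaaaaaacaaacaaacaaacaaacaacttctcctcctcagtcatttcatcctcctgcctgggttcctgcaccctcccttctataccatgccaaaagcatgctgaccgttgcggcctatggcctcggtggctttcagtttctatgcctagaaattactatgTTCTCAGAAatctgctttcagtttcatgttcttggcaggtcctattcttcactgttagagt
Il1f9 (chr2:24186226-24186475, plus strand): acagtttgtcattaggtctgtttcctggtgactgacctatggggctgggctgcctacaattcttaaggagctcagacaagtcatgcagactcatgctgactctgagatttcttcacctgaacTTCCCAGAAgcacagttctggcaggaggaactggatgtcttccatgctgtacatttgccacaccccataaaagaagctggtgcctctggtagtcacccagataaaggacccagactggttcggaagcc
Usp17ld (chr7:103252506-103252755, minus strand): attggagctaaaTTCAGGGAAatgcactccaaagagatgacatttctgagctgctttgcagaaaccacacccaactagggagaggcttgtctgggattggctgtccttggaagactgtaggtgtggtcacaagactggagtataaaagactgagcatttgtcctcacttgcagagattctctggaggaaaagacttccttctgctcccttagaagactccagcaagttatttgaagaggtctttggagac
The match lay 33 to 25 bases before the start in Serpina3g, 61 to 53 in Gm12250, 128 to 120 in Il1f9 and 238 to 230 in Usp17ld, and Serpina3g and Il1f9 share the same 9 letters, TTCCCAGAA. TGANTCA was found before Lif and Il6 and in 6.75% of all promoters, and neither CACGTG nor GTAAACA was found before these 8 genes. The STAT5 target genes Cish, Socs1 and Pim1, which did not pass the test, were searched as well. No STAT motif was found before any of them. Pim1 had 2 promoter windows, and CACGTG and GTAAACA were found only in that at chr17:29492835-29493084. This window lies inside the gene as annotated (29490753 to 29496112, plus strand), not before its first base. A match describes letters in this window and does not show that a factor binds there, and genes with no match may hold sites outside it.

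Most STAT5 target genes lay lower with imatinib in both libraries, although only Osm and Socs2 passed the test. Of the 16 genes of this list, both imatinib+DFC+BCI libraries lay below both DFC+BCI libraries in 13 and above in 1, while over all 10995 genes these shares were 18.4% and 24.4%. The median log2 fold change of the list was -0.35, against 0.02 over all genes, and between -0.45 and -0.29 when 1 of the 4 libraries was left out. In the comparison of imatinib alone with untreated cells, 13 of the 16 were called lower and 1 higher, with a median of -0.73. Over all 10995 genes, 1.66% were called lower and 0.473% higher in that comparison. Cish, which encodes an inhibitor of cytokine receptors, had 132 and 139 FPKM with DFC+BCI, and 66.2 and 54.1 FPKM with imatinib added. The difference of -1.17 (SE 0.147) missed the threshold with an adjusted p of 0.0584. With imatinib alone Cish stood at 13.7 and 16.4 FPKM, so that its level with all 3 drugs remained several times higher. The related inhibitor gene Socs1 had 36.0 and 35.1 FPKM with DFC+BCI, against 18.2 and 13.5 FPKM with imatinib added (-1.13, SE 0.163, adjusted p = 0.0823). Those last levels resembled imatinib alone (13.9 and 17.1 FPKM), and the DFC+BCI levels already lay well under the untreated 80.1 and 63.9 FPKM. Pim1 encodes a kinase that promotes survival. It had 245 and 239 FPKM with DFC+BCI and 158 and 140 FPKM with imatinib added (-0.70, SE 0.0866, adjusted p = 0.0544).

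Other STAT5 targets called with imatinib alone did not pass when it was added. Id1, an inhibitor of differentiation factors, had 51.0 and 50.2 FPKM with DFC+BCI, and 39.5 and 31.1 FPKM with imatinib added (log2 fold change -0.52, adjusted p = 0.491, against -2.25 with imatinib alone). Myc, the growth-promoting transcription factor, had 27.8 and 32.9 FPKM, and 26.0 and 22.0 FPKM with imatinib added (-0.33, adjusted p = 0.487, against -2.37 alone). Both Myc ranges lay between the 80.9 and 73.9 FPKM of untreated cells and the 13.3 and 15.02 FPKM of imatinib alone. Socs3, another inhibitor of cytokine signalling, was highest with DFC+BCI (88.9 and 87.6 FPKM, against 23.9 and 19.8 FPKM untreated), and had 63.1 and 54.4 FPKM with imatinib added (-0.58, adjusted p = 0.234, against -0.74 alone). Bcl2l1, which encodes the survival protein BCL-XL, had 28.8 and 28.2 FPKM, and 22.8 and 20.6 FPKM with imatinib added (-0.38, adjusted p = 0.343, against -0.76 alone). Bcl6, a repressor that STAT5 holds down, was the list's 1 member higher in both libraries, at 2.42 and 2.27 FPKM against 2.80 and 3.10 FPKM (0.24, adjusted p = 0.510). Socs3 and Bcl2l1 were chosen after their values were seen.

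**Figure D2:**
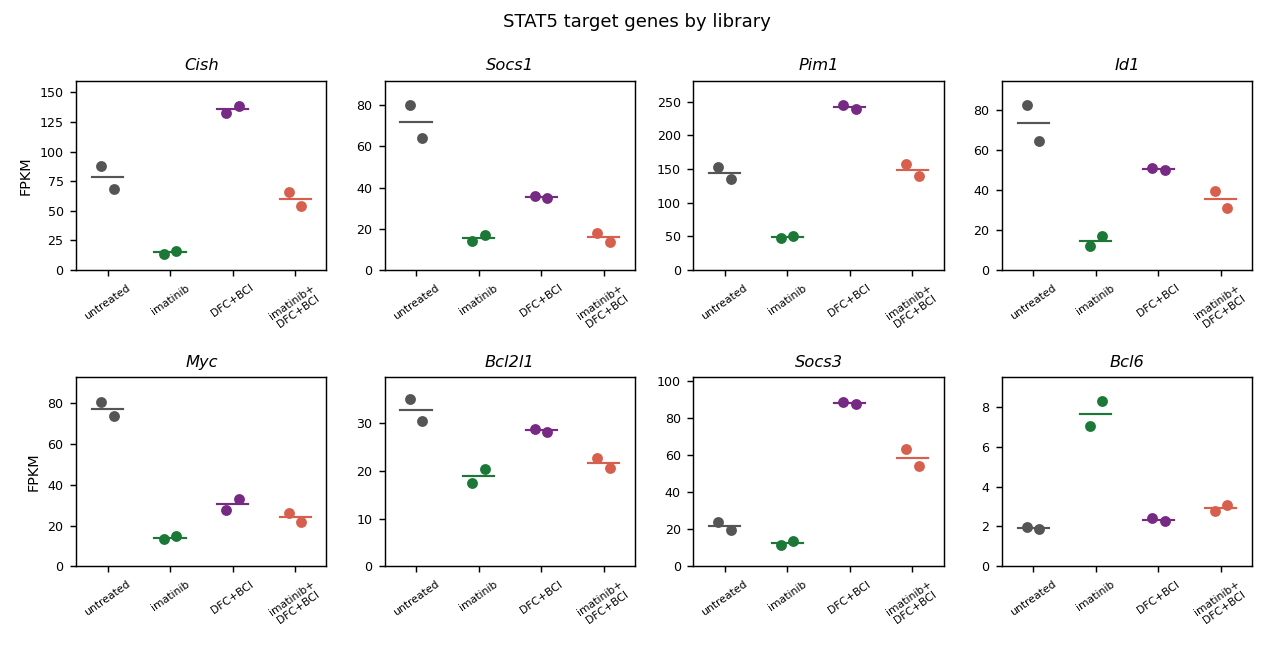
Levels in FPKM (vertical axis, from 0) of 8 STAT5 target genes in untreated BCR/ABL cells and with imatinib, DFC+BCI or all 3 drugs, each point 1 library and each line the mean of 2. In 7 panels both imatinib+DFC+BCI points lie below both DFC+BCI points, and in Bcl6 they lie above. In Id1, Myc, Socs1 and Bcl2l1 this gap is clearly smaller than that between untreated and imatinib points.

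Among cytokine and growth factor genes, both imatinib+DFC+BCI libraries were below both DFC+BCI libraries in 12 of 16 and above in 3. The shares over all genes were 18.4% and 24.4%. Lif, Osm and Il6 passed the test. The list's median was -0.38, and its median with imatinib alone, where 5 were called lower (1.66% over all genes), was -0.29. Il1a and Il1b, the genes of both forms of interleukin 1, were chosen after their values were seen. Il1a had 15.5 and 14.97 FPKM with DFC+BCI and 8.997 and 8.54 FPKM with imatinib added (-0.73, adjusted p = 0.172), and Il1b had 29.2 and 26.8 FPKM and then 18.4 and 19.7 FPKM (-0.53, adjusted p = 0.110). Tnf, the gene of tumour necrosis factor, was among the 3 that lay higher, at 33.2 and 33.6 FPKM and then 34.7 and 36.5 FPKM (0.09, adjusted p = 0.810). Of 16 chemokine genes 7 lay lower in both libraries and 3 higher, with a median of -0.02 (-0.09 to 0.00890 without 1 of the 4 libraries) and no member called. The most abundant were Ccl6 (-0.08, adjusted p = 0.813) and Ccl9 (0.09, adjusted p = 0.856).

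Of 21 genes of ERK output and feedback, 12 lay lower in both libraries and 0 higher (18.4% and 24.4% over all genes), with no member called. The median was -0.14, and leaving out imatinib+DFC+BCI library a or b gave -0.24 or -0.10. With imatinib alone 10 of these were called lower (1.66% over all genes), with a median of -0.39. The most abundant were the stress response gene Ier3 and Phlda1, an early gene of growth factor signalling. Ier3 had 258 and 272 FPKM with DFC+BCI and 229 and 208 FPKM with imatinib added (-0.28, adjusted p = 0.510). Phlda1 had 55.7 and 59.5 FPKM, and 51.9 and 40.9 FPKM with imatinib added (-0.31, adjusted p = 0.580). Fos, which encodes the AP-1 subunit that DFC is used against, overlapped between groups at 29.1 and 30.9 FPKM and 32.4 and 28.0 FPKM (0.01, SE 0.0861, adjusted p = 0.994). Dusp1, which encodes the MAP kinase phosphatase that BCI is used against, overlapped as well, at 120 and 133 FPKM and 120 and 102 FPKM (-0.19, SE 0.101, adjusted p = 0.648). RNA levels do not show whether either protein was inhibited. Of 29 immediate early genes 8 lay lower and 3 higher, and the list's direction turned with 1 library. Its median of -0.02 became -0.16 without imatinib+DFC+BCI library a (24 fitted below 0 and 5 above) and 0.11 without library b (9 below and 20 above). The most abundant members were Zfp36 (-0.12, adjusted p = 0.605) and Jun (0.06, adjusted p = 0.960).

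Interferon response genes lay lower in both libraries in 17 of 32 cases and higher in 2, against 18.4% and 24.4% over all genes. Their median was -0.07 and no member was called. Imatinib alone called 6 of them lower (1.66% over all genes), with a median of -0.20. Iigp1, an interferon-induced GTPase gene chosen after its values were seen, had 14.99 and 14.3 FPKM with DFC+BCI, and 8.29 and 9.50 FPKM with imatinib added (-0.66, adjusted p = 0.0644). The most abundant members were Bst2 (0.13, adjusted p = 0.848) and Irf1 (-0.01, adjusted p = 0.993). Targets of NF-kB (11 of 24 lower, 3 higher, median -0.07) and of p53 (10 of 21 lower, 2 higher, median -0.11) had no called member. Without 1 of the 4 libraries the medians ran from -0.13 to -0.03 for NF-kB, nearest 0 without DFC+BCI library a, and from -0.14 to -0.06 for p53, nearest 0 without imatinib+DFC+BCI library b. Among p53 targets the cell cycle inhibitor gene Cdkn1a had 329 and 300 FPKM and then 281 and 276 FPKM (-0.17, adjusted p = 0.602), and Mdm2, the gene of the p53 inhibitor, had 163 and 141 FPKM and then 128 and 138 FPKM (-0.19, adjusted p = 0.574).

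Heat shock genes, which encode chaperones, lay mostly higher with imatinib added, with no member called. Of 21, 13 lay higher in both libraries and 3 lower, against 24.4% and 18.4% over all genes. The median was 0.14, and 0.11 to 0.15 without 1 of the 4 libraries. Hspb1, Dnajb1, Hspa1a and Hspa1b were chosen after their values were seen. Hspb1 had 2.32 and 2.302 FPKM with DFC+BCI and 6.81 and 4.56 FPKM with imatinib added (0.99, SE 0.151, adjusted p = 0.0972), and at most 0.108 FPKM in untreated cells and with imatinib alone. Dnajb1 had 73.4 and 75.9 FPKM, and 110 and 100.7 FPKM with imatinib added (0.49, SE 0.0681, adjusted p = 0.0745). The near copies Hspa1a and Hspa1b differed by 0.39 (adjusted p = 0.434) and 0.41 (adjusted p = 0.433). Hspa8 (0.11, adjusted p = 0.690) and Hsp90ab1 (0.17, adjusted p = 0.524) were the most abundant of the list.

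All 41 cytoplasmic ribosomal protein genes had a fitted value above 0, with 28 higher in both libraries (24.4% over all genes). The median was 0.11 and no member was called. The most abundant were Rps2 (0.12, adjusted p = 0.792) and Rps20 (0.07, adjusted p = 0.837). With quantile normalization the median was 0.02, with 29 fitted above 0 and 11 below, and with median scaling it was 0.08, with 39 above and 2 below. Of 22 S phase genes 11 lay higher and 1 lower (median 0.07, and 0.03 to 0.10 without 1 of the 4 libraries), with no member called. Of 25 G2/M genes 6 lay higher and 0 lower, with no member called, so the share higher was near the 24.4% of all genes. Their median was 0.08, and 0.02 without DFC+BCI library a. Of 28 genes of MYC and ribosome biogenesis, 6 lay higher, also near that share, and 1 lower. Their median was 0.04, and 0.00353 without DFC+BCI library a. With imatinib alone 5 were called lower (1.66% over all genes), with a median of -0.25.

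Of 21 FOXO targets, 5 were called higher with imatinib alone (0.473% over all genes), with a median of 0.21. On adding imatinib to DFC+BCI 0 were called, and 8 lay lower and 3 higher, against 18.4% and 24.4% over all genes. The median was -0.05, or 0.00939 without imatinib+DFC+BCI library b. Members of the BCL2 family, which set the threshold of cell death, had 5 of 15 lower, 1 higher and 0 called, with the abundant Mcl1 at -0.07 (adjusted p = 0.809) and Bax at -0.03 (adjusted p = 0.974).

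**Figure D3:**
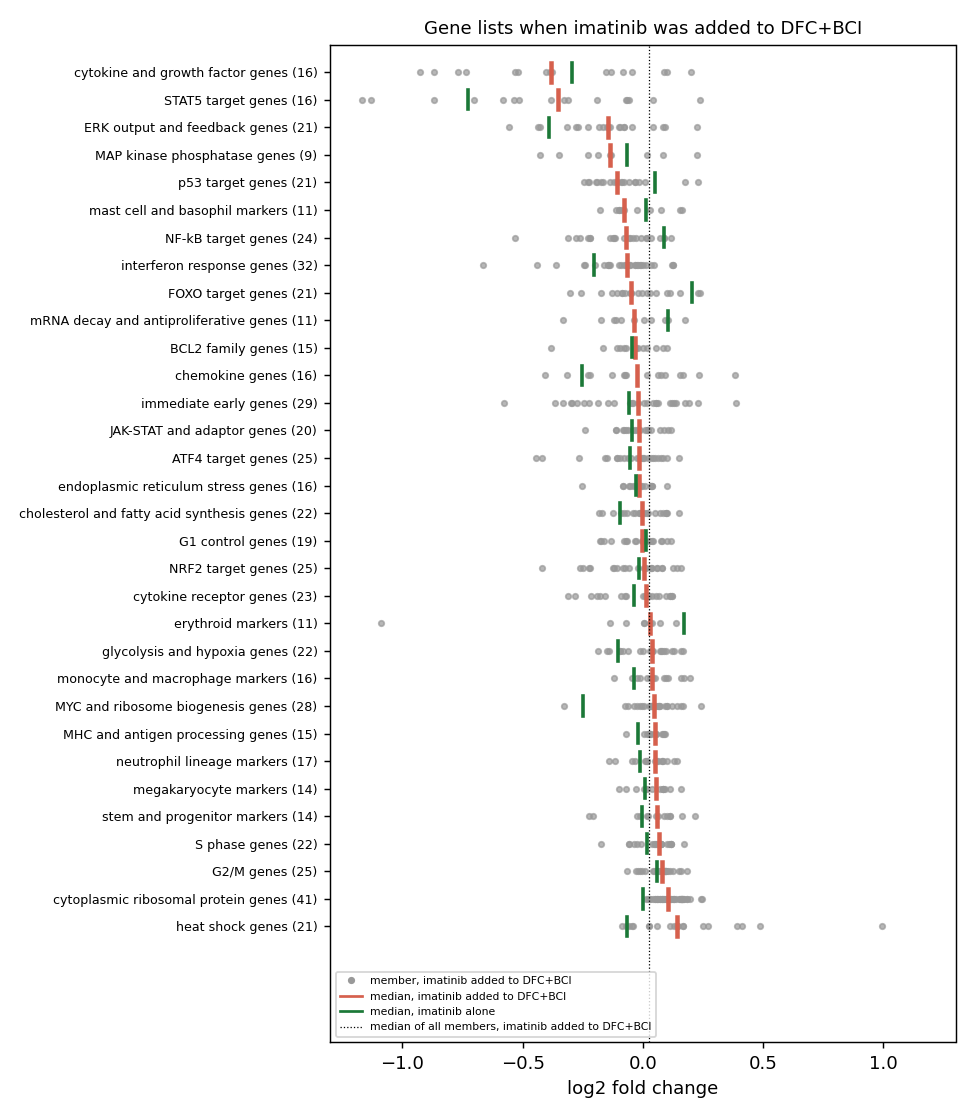
Log2 fold change of imatinib+DFC+BCI against DFC+BCI (horizontal axis) of the members of 32 gene lists, with the number of members in parentheses; 2 values beyond 1.3 are not drawn. Red bars are medians of this change over all members of a list, those not drawn included, and green bars are medians with imatinib alone. The dotted line is the median of all 10995 genes, 0.02, and STAT5 targets (-0.35) and cytokine genes (-0.38) lie farthest below it.

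The comparison of imatinib with untreated cells shares no library with that of imatinib added to DFC+BCI. Both come from the same fit with 1 estimate of the spread per gene, so a gene with a small spread is favoured in both. Genes called in both are thus not the agreement of independent tests. Among the 10995 genes, imatinib alone called 183 lower (1.66%) and 52 higher (0.473%). Of the 12 genes lower on adding imatinib, 9 were also called lower with imatinib alone, and Il1f9, 2810474O19Rik and Snora16a were not. Seen from the other side, 141 of the 183 genes (77.0%) had a value below 0 on adding imatinib, as did 41.0% of all 10995 genes. Both libraries lay lower in 114 of the 183 (62.3%) and higher in 16, against 18.4% and 24.4% of all genes. Their median was -0.56 with imatinib alone and -0.14 on adding it, and 44 of the 183 kept at least 50% of their log2 change. Of the 52 genes called higher with imatinib alone, 31 (59.6%) had a value above 0 on adding it, near the 59.0% of all genes. In 21 of the 52 (40.4%) both libraries lay higher and in 13 lower, against 24.4% and 18.4% of all genes. Their median went from 0.47 to 0.04, 4 kept at least 50% of their log2 change and 0 passed the test. Both sets were chosen by their values with imatinib alone, which tends to overstate those values. Part of the smaller change on adding imatinib was therefore fixed in advance, and how much was not tested. Across all 10995 genes the correlation of the log2 fold changes was 0.13. Genes are not independent replicates, and all points share the same libraries.

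**Figure D4:**
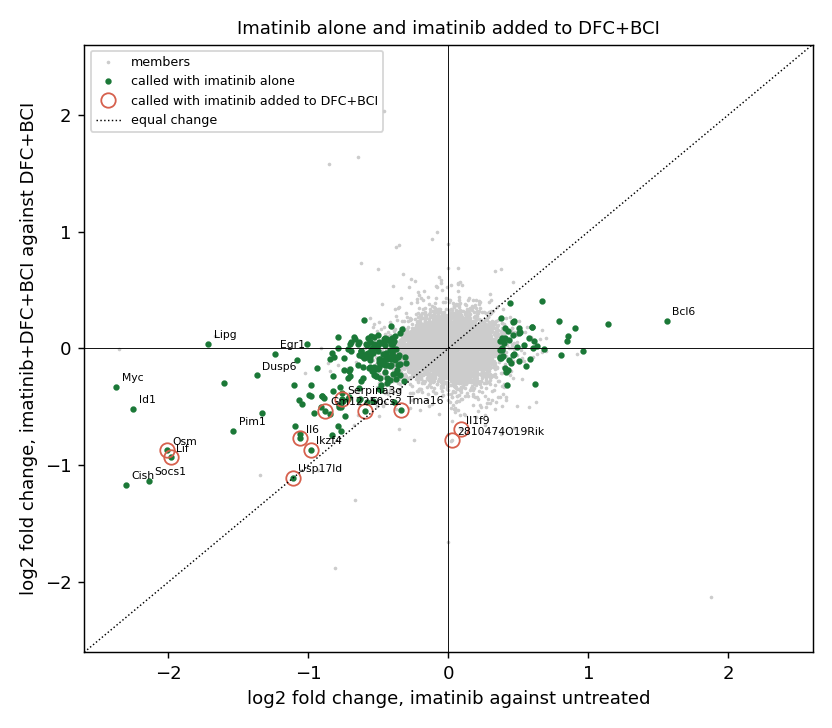
Log2 fold change of imatinib added to DFC+BCI (vertical axis) against that of imatinib alone (horizontal axis) for the 10995 genes, less 11 beyond 2.6 on either axis. Green points passed the test with imatinib alone, so they were chosen by their horizontal values, and red rings passed on adding it. Most green points on the left lie below 0 but above the dotted line of equal change, and those on the right lie about 0.

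Among genes called with imatinib alone, small RNAs and predicted genes set aside, the largest falls were those of Myc (-2.37), Cish (-2.30), Id1 (-2.25), Socs1 (-2.14), Osm (-2.01), Lif (-1.98), Lipg (-1.71) and Pim1 (-1.54). On adding imatinib the values of these 8 genes ran from -1.17 for Cish to 0.04 for Lipg, and only Osm and Lif passed. The largest rises among called genes, by the same rule, were those of Bcl6 (1.56), Klhl24 (1.14), Ccng2 (0.96), Pnrc1 (0.90), Pdcd4 (0.85), Crebrf (0.85), Trp53inp1 (0.81) and Mettl7a1 (0.79). On adding imatinib these 8 had values from -0.06 for Trp53inp1 to 0.24 for Bcl6, none past the test. As these falls and rises were picked by size with imatinib alone, smaller values in the other comparison were in part fixed in advance.

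The difference between both responses was tested directly, and 16 of the 10995 genes passed (0.146%). Lipg, which encodes endothelial lipase, had 113 and 101.5 FPKM in untreated cells and 30.7 and 33.2 FPKM with imatinib. With DFC+BCI it had 69.2 and 74.1 FPKM, and 76.8 and 70.8 FPKM with imatinib added. Lipg thus lost most of its level to imatinib alone, while the groups with DFC+BCI overlapped. The responses differed by 1.75 on the log2 scale (SE 0.115, adjusted p = 0.00534). For Myc the difference was 2.04 (SE 0.162, adjusted p = 0.0133), and its call was lost in 3 of 8 fits with 1 library left out, against 1 of 8 for Lipg.

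The phosphatase gene Dusp6, an ERK feedback gene, had 19.01 and 17.9 FPKM in untreated cells, 6.43 and 6.62 with imatinib, 27.3 and 26.2 with DFC+BCI, and 24.8 and 20.7 with all 3 drugs. Egr1, an immediate early transcription factor gene, followed the same order, with 11.1 and 11.2 FPKM, 3.90 and 4.39, 43.2 and 47.3, and 48.3 and 39.7. Both genes were lowest with imatinib alone and kept high levels when imatinib joined DFC+BCI. Their responses differed by 1.14 (SE 0.128, adjusted p = 0.0363) and 1.19 (SE 0.146, adjusted p = 0.0480). Lif and Osm fell in both settings, by less on the log2 scale with DFC+BCI present. The differences were 1.05 (adjusted p = 0.0343) and 1.14 (adjusted p = 0.0363), and neither call held in most fits with 1 library left out.

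Ccng2, a FOXO target that encodes a cyclin of cell cycle arrest, had 13.3 and 14.8 FPKM in untreated cells and 27.8 and 28.6 with imatinib. With DFC+BCI it was already at 36.4 and 36.1 FPKM, and at 36.4 and 35.1 with imatinib added. Its difference between responses was -0.98 (SE 0.0938, adjusted p = 0.0296). Bcl6 and Klhl24, an adaptor gene of a ubiquitin ligase, also rose with imatinib alone, with differences of -1.32 (adjusted p = 0.0299) and -0.93 (adjusted p = 0.0467). Pde4b, which encodes a cyclic AMP phosphodiesterase, had 4.50 and 5.10 FPKM untreated, 7.58 and 8.18 with imatinib, 16.3 and 15.8 with DFC+BCI and 13.2 and 12.5 with all 3 drugs. It was higher with imatinib in 1 setting and lower in the other, with a difference of -0.92 (adjusted p = 0.0468). Bcl2a1a, a survival gene with near copies, had 24.6 FPKM in both untreated libraries, 15.6 and 14.5 with imatinib, 12.5 and 12.3 with DFC+BCI and 13.2 and 13.5 with all 3 drugs (difference 0.77, adjusted p = 0.0363). Gapt, the gene of an adaptor protein of blood cells, had the same order of levels (difference 0.88, adjusted p = 0.0468). The rest of the 16 were Eif3j1, 2810474O19Rik, Fam60a and G2e3, the last pair outside the rule for named genes. For 13 of the 16, among them Dusp6, Egr1, Ccng2 and Bcl6, the call was lost in at least 7 of 8 fits with 1 library left out (adjusted p up to 0.284).

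**Figure D5:**
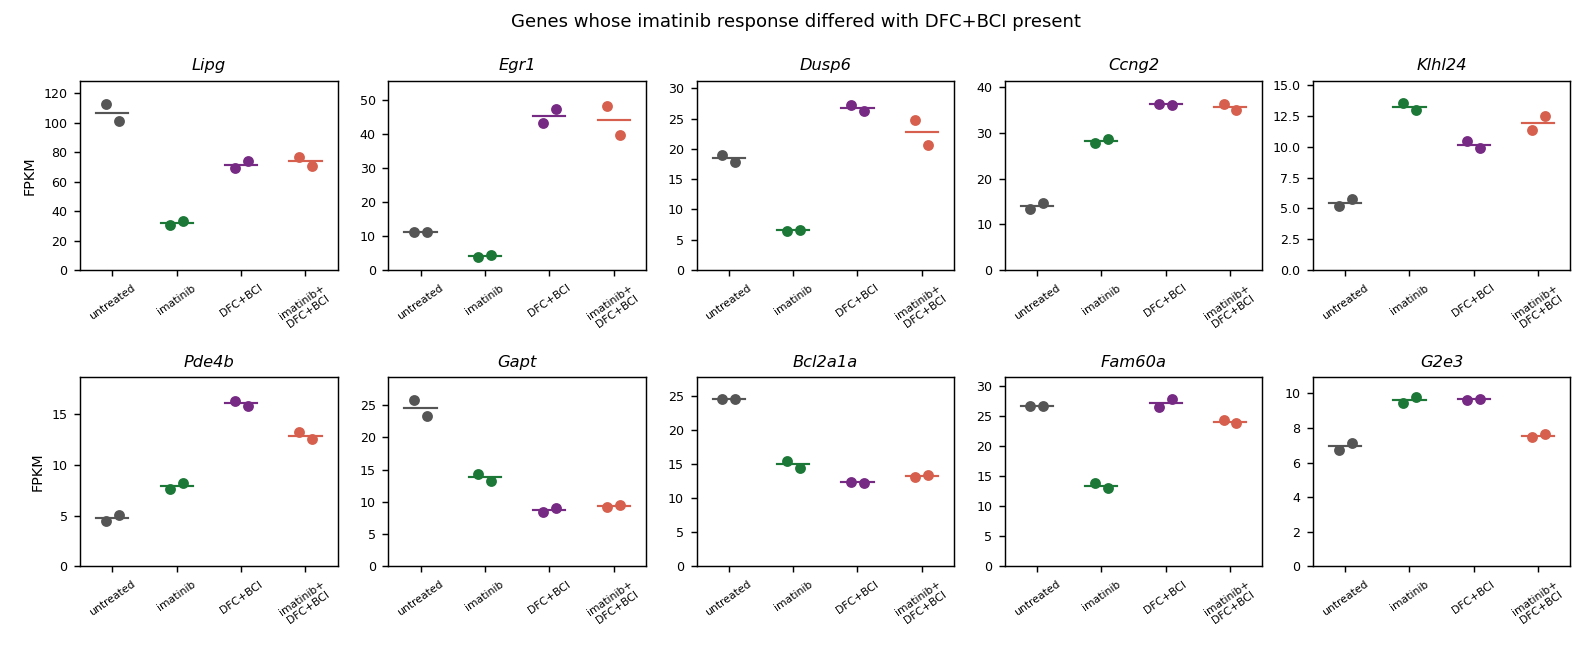
Levels in FPKM (vertical axis, from 0) of 10 of the 16 genes whose response to imatinib differed with DFC+BCI present, each point 1 library and each line the mean of 2. In Lipg, Egr1 and Dusp6 the imatinib points lie far below the untreated ones while both groups with DFC+BCI lie close together.

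Markers of the cell types that a Kit+ marrow culture can hold did not move past the test. Kit itself, the marker used to isolate the cells, had 6.66 and 6.91 FPKM with DFC+BCI and 7.55 and 7.28 FPKM with imatinib added (0.11, adjusted p = 0.652). Stem and progenitor markers summed to 466 and 489 FPKM and then 519 and 516 FPKM. Most of these sums was Ly6a, at 278 and 290 FPKM and then 312 and 323 FPKM. The list's median log2 fold change of 0.06 became -0.04 without DFC+BCI library a. Neutrophil lineage markers summed to 15695 to 16839 FPKM in the 4 libraries. Monocyte and macrophage markers summed to 2968 and 2936 FPKM with DFC+BCI and to 3091 and 3084 FPKM with imatinib added. These sums and those of stem and progenitor markers did not overlap between groups, and their part in the results was not tested. The cultures thus held much RNA of maturing cells beside Kit. In bulk RNA, fewer cells of a type and less RNA per cell cannot be told apart. Summed markers of mast cells and basophils (606 to 647 FPKM), megakaryocytes (826 to 925 FPKM), erythroid cells (340 to 383 FPKM) and T and NK cells (304 to 322 FPKM) overlapped between groups, and B lymphoid, eosinophil and stromal markers each summed to at most 33.9 FPKM. None of the genes on these lists was called. Bcr and Abl1, whose coding sequences the virus also carries, had values of 0.06 (adjusted p = 0.959) and 0.11 (adjusted p = 0.646). The deposited values of the 4 libraries summed to 464582 to 492374 FPKM, replicates correlated at 0.991, and the read depth behind them is unknown.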

How the data were processed

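RNA of 11 libraries was sequenced after TruSeq stranded mRNA preparation, per the labels' protocols. Per the submitters' processing notes, TopHat (mm10) aligned the reads and Cufflinks estimated levels; versions are not given in the sources used here. The deposited values carry no unit in their header and are taken as FPKM from their form, that of Cufflinks output. No counts are in the table, so the read depth is unknown and no counting interval is given. Columns of the treated groups carry the letters a and b where the labels carry numbers, so libraries were assigned to groups only. In 27 rows (19 of them among the 10995 genes) the symbol had become a date, as spreadsheets do, and these genes are not named.

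Fold changes are differences of log2(FPKM + 1), a scale that understates changes of low genes. In R 4.3.3, limma 3.58.1 was fitted to the 11442 genes that reached 1 FPKM in 2 or more libraries (the limma-trend method, 1 coefficient per group, 2-sided, Benjamini-Hochberg over all genes tested), and a gene was called at an adjusted p under 0.05. Every adjusted p is from limma. The 4 groups of 2 libraries gave 4 residual degrees of freedom, to which the fit added 3.2. The interaction is the response to imatinib with DFC+BCI minus that without. "Lower" or "higher in both libraries" means that the groups did not overlap, with no test. The test was tried on simulated data with known changes, which were larger than most of those called here. That trial does not show how well changes of the sizes called here are found.

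The comparison, the gene lists and the motifs were chosen with earlier results of these data known, so the direction of a list such as the STAT5 targets is not independent evidence. The rule for named genes takes Fos, Dusp1, Bcr, Abl1 and Kit, called genes of at least 5 FPKM that do not overlap, up to 15 genes past the interaction test, the 8 largest changes each way with imatinib alone, and up to 4 called or else 2 abundant members per list. Predicted genes and small RNAs were not named except where stated. Gene positions are from GENCODE vM21. Alternatives covered the pseudocount (0.1 and 5), the filter on low values, scaling, the libraries fitted, the prior, each library left out, and a replicate block.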

Additional observations from a re-analysis of the deposited data

Results flagged for a closer look

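The response to imatinib differed with and without DFC+BCI in 16 genes, by limma's test of the difference itself, given here as the log2 fold change with DFC+BCI minus that of imatinib alone. Above 0 were Eif3j1 (5.37), whose near copy Eif3j2 makes its level uncertain, Myc (2.04), Lipg (1.75), Egr1 (1.19), Osm (1.14), Dusp6 (1.14), Lif (1.05), Gapt (0.88), Bcl2a1a (0.77) and Fam60a (0.77). Below 0 were Bcl6 (-1.32), Ccng2 (-0.98), Klhl24 (-0.93), Pde4b (-0.92), 2810474O19Rik (-0.81) and G2e3 (-0.73).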

How the results depend on the processing

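With 2 libraries a group and no counts, the number of genes called and the balance of higher and lower calls depend strongly on the libraries fitted. Over all settings, 0 of the named genes' values changed direction where a call was involved, 2870 kept their side of the threshold, 276 lost a call and 33 gained one. On adding imatinib to DFC+BCI, 13 genes were called, 7 with only the 4 libraries compared and 1 to 7 with 1 library left out. The 12 lower and 1 higher became 0 lower and 7 higher without imatinib+DFC+BCI library b. Some list medians turned too: that of megakaryocyte markers, 0.05, became -0.07 or 0.18 when imatinib+DFC+BCI library a or b was left out. At least 2-fold, 3 were called, 5 with a pseudocount of 0.1, 0 with no filter on low values (limma, 1929 at an unadjusted p under 0.05), 6 with quantile normalization, 6 with median scaling and 1 to 7 with 1 library left out. For the interaction 17 of 11442 genes were called, 10 with a pseudocount of 5, 2 with no filter, 11 with quantile normalization, 28 with median scaling, 7 with no trend and 2 to 12 with 1 library left out. With imatinib alone 241 were called, 122 with no filter, 27 with only the 4 libraries compared and 55 to 112 with 1 library left out. With fewer libraries, the fits have fewer degrees of freedom, and with no filter more genes are tested. The cause of the other shifts was not tested.

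The letters were not shown to pair the libraries: the a minus b differences of the DFC+BCI and the imatinib+DFC+BCI libraries correlated at -0.10 across genes. With the letter as a replicate block limma called 0 genes on adding imatinib (749 at an unadjusted p under 0.05), and 0 of at least 2-fold. With the letters crossed, a setting chosen after seeing the data, 4 genes were called, 1 of at least 2-fold. No block was fitted for the interaction or for imatinib alone, since the untreated columns carry no letter.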

Other observations

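Some genes outside the lists came close to the threshold on adding imatinib and were chosen after their values were seen. The receptor gene Lrp12 had 68.1 and 64.7 FPKM with DFC+BCI and 47.1 and 48.0 FPKM with imatinib added (-0.47, adjusted p = 0.0533), and with imatinib alone it was called lower (-1.04, adjusted p = 0.000522). Bhlhe40, a transcription factor gene that answers cytokines, had 108 and 103 FPKM and then 75.2 and 78.2 FPKM (-0.45, adjusted p = 0.0644). The interferon-inducible GTPase gene Irgm2 had 24.1 and 23.7 FPKM and then 16.6 and 17.6 FPKM (-0.46, adjusted p = 0.0675). In each of these 3 genes both libraries with imatinib lay below both without it. Tlr4, the receptor for bacterial lipopolysaccharide, had 19.5 and 16.6 FPKM and then 10.1 and 11.5 FPKM (-0.69, adjusted p = 0.110), and the activation marker gene Cd69 had 49.5 and 55.9 FPKM and then 36.4 and 37.5 FPKM (-0.50, adjusted p = 0.110).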
